A study of Homo sapiens with 18 samples.

Results

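The transcriptomes of 2 human epithelial cell lines, hTERT RPE-1 and MCF10A, were set side by side in their control state. hTERT RPE-1 is a line of retinal pigment epithelium immortalised with the telomerase catalytic subunit, and MCF10A is a near-normal breast epithelial line. Of the 18 RNAseq libraries, 6 were used, which are the 3 of each line that received a non-targeting siRNA (siNT) at 30 nM for 72 h. The 12 libraries with microRNA mimics were left out of the comparison, apart from a check of 2 pigment genes. The MCF10A libraries are replicates 7, 8 and 9, the hTERT RPE-1 libraries replicates 1, 2 and 3, and values below follow that order. These samples carry the label of biological replicates, with nothing more on how they were separated, so each p-value measures the spread between these samples. MCF10A cells were grown in DMEM/F-12 with horse serum, insulin, hydrocortisone, epidermal growth factor and cholera toxin, whereas hTERT RPE-1 cells had DMEM/F-12 with fetal bovine serum. Cell line, medium and table of values go together in these samples, and their parts in a difference cannot be told apart. Each line is a single line kept in culture, so a value describes that line and not the tissue it came from.

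The retinal pigment epithelium (RPE) is a single layer of pigmented cells behind the photoreceptors. It recycles the retinoid of the visual pigments, engulfs shed photoreceptor tips and moves ions and nutrients between blood and retina. Its identity is set by transcription factors such as MITF and OTX2, which drive the pigment genes, and it carries keratins of simple epithelia. The breast epithelium has an inner layer of luminal cells, which can make milk, and an outer layer of basal or myoepithelial cells. These outer cells carry the keratins KRT5 and KRT14, the factor TP63 and, in the gland, a smooth-muscle contractile apparatus. The comparison asks which of these programs each line carries when no microRNA mimic is present.

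Each deposited value is an estimate of reads on a gene, scaled by a size factor for library depth. The tables of the lines were scaled separately, so the 6 columns were joined by gene symbol and scaled together by the median of ratios over the 12263 genes that reached 10 in every column. All values below are on this joint scale unless another scale is named. MCF10A libraries held an estimated 24.2–30.2 M reads and hTERT RPE-1 libraries 23.8–40.3 M, and 3 reads were worth values of 2.78–3.69 and 2.54–4.30. Values correlated across genes at r of 0.986–0.990 within MCF10A, 0.987–0.992 within hTERT RPE-1 and 0.745–0.762 between the lines. These are correlations over genes, which are not independent replicates. Replicate 3 of hTERT RPE-1 stood apart in the pigment genes TYRP1 and PMEL, described below with and without it.

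The tables list 15358 genes for MCF10A and 15257 for hTERT RPE-1, of which 13900 are shared. Every listed value is above 0 in all 9 libraries of its table. A gene listed for 1 line alone therefore has a level in that line and no value here in the other, and no fold or test is given for it. There were 1458 genes listed for MCF10A alone and 1357 for hTERT RPE-1 alone, or 8.72% and 8.12% of the 16715 genes listed for either line. Most of these were low, with a median mean value of 21.4 and 14.5, and 127 and 84 of them reached 1000.

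Among the 13467 shared genes that reached 10 in 3 or more libraries, 3728 (27.7%) differed by more than 2-fold, by limma's treat test of log2(value + 1) against a 2-fold interval with Benjamini-Hochberg adjusted p below 0.05. Of these, 2021 (15.0%) were higher in hTERT RPE-1 and 1707 (12.7%) in MCF10A. The call of a gene below always means this test, and every log2 difference is hTERT RPE-1 minus MCF10A. Tested against no difference at all, limma called 10192 genes (75.7%), and the values of the lines did not overlap in 10607 (78.8%), so a lack of overlap alone is common here. The filter favours a difference in a gene that passed it through 1 line only, so the counts over lists and the calls of such genes are descriptions. The split by direction depends on the scaling. With the sum of all joined genes as the scale, 1616 genes were called higher in hTERT RPE-1 and 2378 in MCF10A, and the median of all genes moved from 0.01 to -0.28. Fibronectin alone took 3.06–4.66% of the summed values in hTERT RPE-1 and 0.039–0.090% in MCF10A.

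A total of 22 gene lists with 436 entries was described. The bar chart of outcomes by list gives the number of members in each class, and the dot plot of defining genes gives the values behind it.

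**Figure D1:**
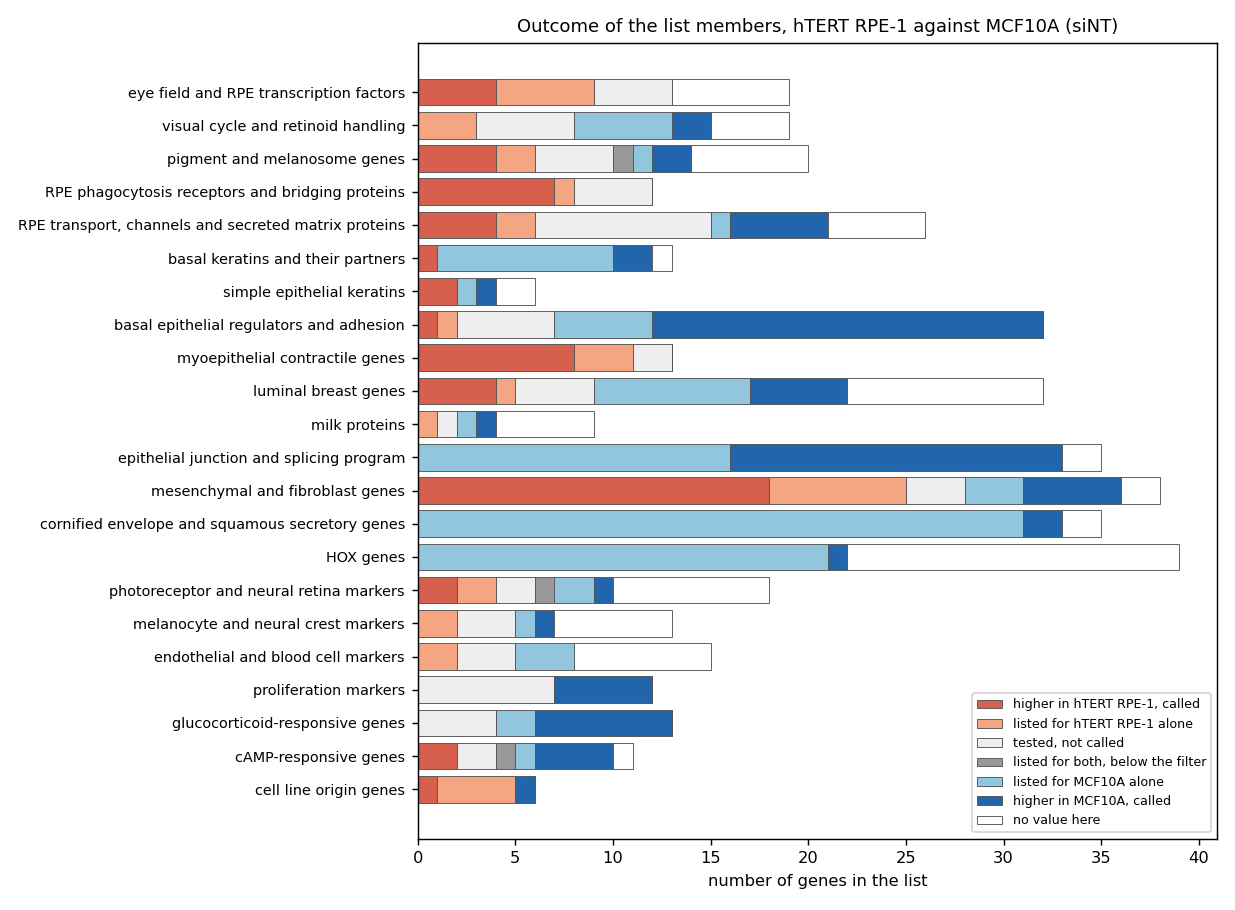
Number of genes of each list (x axis) by outcome, with called genes in dark colours, genes listed for 1 line alone in light colours, and white for no value here. The lists of junction, cornified envelope and HOX genes hold 0 members called higher in or listed alone for hTERT RPE-1, and the contractile and phagocytosis lists hold 0 for MCF10A.

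**Figure D2:**
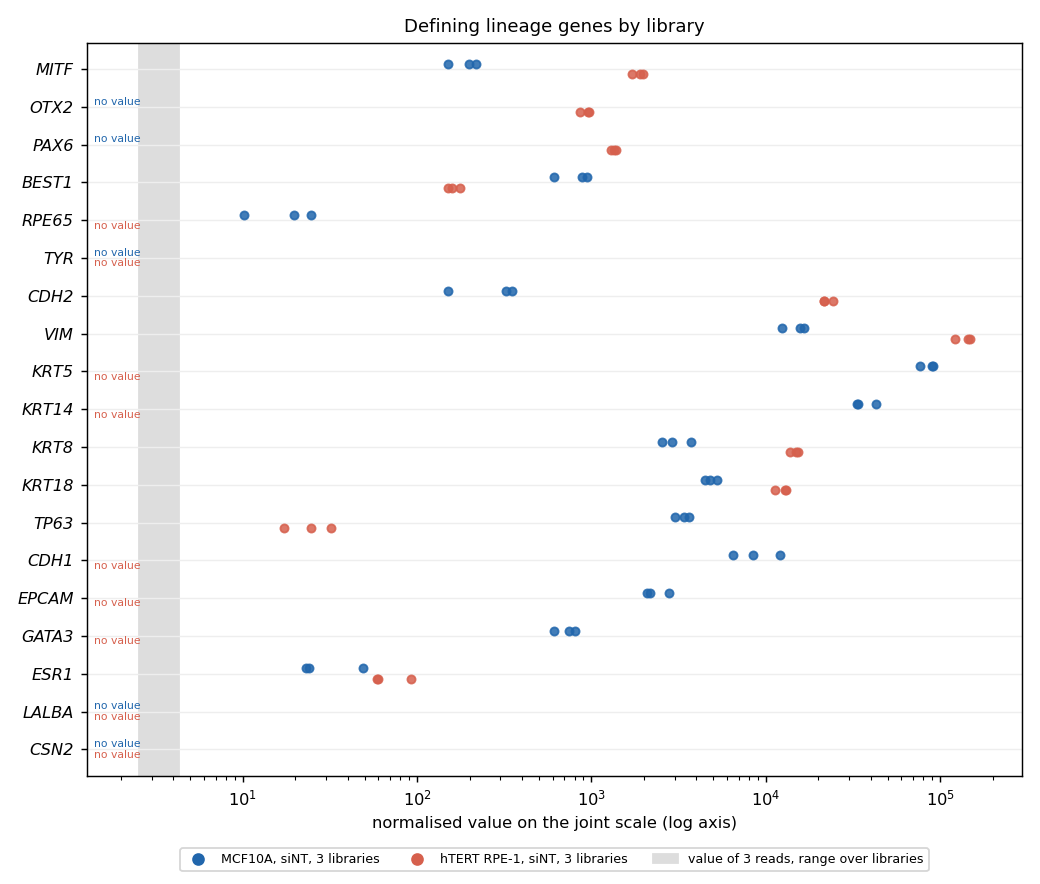
Values of 19 defining genes in each library (points, log axis, joint scale) for MCF10A and hTERT RPE-1, with the band marking the value of 3 reads. MITF, OTX2, PAX6, CDH2 and VIM stand higher or alone in hTERT RPE-1, KRT5, KRT14, TP63, CDH1, EPCAM and GATA3 in MCF10A, and RPE65 and BEST1 stand alone or higher in MCF10A.

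The transcription factors of the eye field and of the RPE stood on the side of hTERT RPE-1. Of the 19 factors in the list, 8 were tested, of which 4 were called higher in hTERT RPE-1, where 15.0% of all genes tested were, and 0 in MCF10A, where 12.7% were. A further 5 were listed for hTERT RPE-1 alone, and 6, with PAX2, SIX6, RAX, CRX and VAX1 among them, have no value here. The median log2 difference of the tested members was 1.41, against 0.01 over all genes. MITF, the factor that drives pigment cell genes, lies at chr3:69739456-69968336 (GRCh38). Its values were 216, 149.6 and 198 in MCF10A against 1898, 1714 and 1981 in hTERT RPE-1. The lines did not overlap, and the mean was 9.92-fold higher in hTERT RPE-1, with a log2 difference of 3.32 (SE 0.15, adjusted p = 2.8e-07). In bulk RNA a higher share of cells with a transcript and more of it per cell cannot be told apart, which holds for every difference here.

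OTX2, a homeobox factor of the forebrain and of the RPE, was listed for hTERT RPE-1 alone at 862, 959 and 966. PAX6, the paired-box factor of the eye field, stood alone there too at 1382, 1350.4 and 1302, and SIX3, a homeobox factor of the anterior head, at 1246, 1176 and 1217. In each of these genes the replicates lay close together. TFEC, a relative of MITF, and VAX2, a factor of the ventral eye, were also listed alone but low, TFEC at 17.8, 21.7 and 7.16 and VAX2 at 16.9, 29.6 and 22.9.

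NR2F1, a nuclear receptor of the developing optic vesicle, had values of 27, 24 and 22.3 in MCF10A against 4130.3, 4358 and 4267 in hTERT RPE-1, the largest called difference of the list at 7.39 (SE 0.13, adjusted p = 1.2e-10). Its relative NR2F2 was at 1243, 1169 and 1096 in MCF10A against 3665, 3579.5 and 4834 in hTERT RPE-1, with a log2 difference of 1.77 (SE 0.12, adjusted p = 2.8e-04). MEIS2, a homeobox cofactor, was 5.96-fold higher in hTERT RPE-1. The members that were not called were OTX1, LHX2, SOX9 and MEIS1, with log2 differences from -0.68 to 1.04. LHX2, an early eye field factor, was low in both lines, at 2.46, 13.1 and 18.6 in MCF10A against 13.5, 6.92 and 8.59 in hTERT RPE-1, so the lines overlapped.

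Few genes of the visual cycle could be compared. Of 19 genes of retinoid handling, 7 were tested, with 0 called higher in hTERT RPE-1 and 2 higher in MCF10A. Over all genes tested the shares were 15.0% and 12.7%, and shares over 7 genes are imprecise. A further 5 were listed for MCF10A alone, 3 for hTERT RPE-1 alone and 4 have no value here. The median log2 difference of the tested members was 0.06, and it was -0.23 with the sum as the scale. RPE65, the isomerase that defines the visual cycle, has a value for MCF10A alone, at 24.6, 19.7 and 10.2. RLBP1, which carries the retinoid in RPE cells, was listed for hTERT RPE-1 alone at 1.69, 3.95 and 1.43, where replicates 1 and 3 did not reach the value of 3 reads. RGR, an opsin of the RPE, has no value here in either line.

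LRAT, which esterifies retinol for storage, was high in the breast line. Its values were 1417, 1213 and 1082 in MCF10A against 6.77, 1.98 and 1.43 in hTERT RPE-1, where replicates 2 and 3 lay at or under 3 reads. It was called higher in MCF10A at -8.33 (SE 0.39), a size that depends on the pseudocount. Its hTERT RPE-1 values were all under 10, so LRAT passed the filter through MCF10A alone, and the call is a description. CYP26B1, which degrades retinoic acid, was 6.26-fold higher in MCF10A, with values of 355, 446 and 377 against 61.8, 60.3 and 65.9. RDH5, a retinol dehydrogenase of the RPE, was listed for hTERT RPE-1 alone at 44.9, 43.5 and 81.3. Other enzymes of retinoid handling were abundant in both lines, and RDH10, RDH11, DHRS3 and ALDH1A3 were not called.

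Pigment genes were next described together with their promoters, because MITF recognises a short motif there. The letters TCATGTG, the core of the longer M-box, were searched on both strands. The search covered the 300 bases from 250 before to 50 after each annotated start (RefSeq, GRCh38.p14). They occur in 2.92% of all 35116 promoters in the table. Promoters were found for 15 of the 20 pigment genes, and 6 of these (TYR, TYRP1, DCT, GPNMB, GPR143 and SLC24A5) hold the letters at least once. The 150 bases before the start are shown for GPNMB and GPR143, which were called higher in hTERT RPE-1, and for TYRP1, which differed between replicates. Capitals mark these core letters or their reverse complement CACATGA, and the full M-box was not searched.
GPNMB (chr7:23246625-23246774, plus strand): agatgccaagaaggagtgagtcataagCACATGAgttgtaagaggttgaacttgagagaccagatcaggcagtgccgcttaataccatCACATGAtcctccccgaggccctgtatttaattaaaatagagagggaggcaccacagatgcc
GPR143 (chrX:9765848-9765997, minus strand): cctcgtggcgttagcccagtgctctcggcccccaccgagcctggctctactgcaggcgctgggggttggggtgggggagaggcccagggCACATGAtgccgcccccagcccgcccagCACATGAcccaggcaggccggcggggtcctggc
TYRP1 (chr9:12693235-12693384, plus strand): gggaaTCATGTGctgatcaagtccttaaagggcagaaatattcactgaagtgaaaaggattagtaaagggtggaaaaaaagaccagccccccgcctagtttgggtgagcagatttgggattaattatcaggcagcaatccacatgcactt
GPNMB and GPR143 each carry 2 copies and TYRP1 has 1. A match of letters is a description and does not show binding.

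Of the 20 pigment and melanosome genes, 10 were tested, with 4 (40%) called higher in hTERT RPE-1, 2 (20%) higher in MCF10A and 4 not called. Among all genes tested the shares were 15.0% and 12.7%, and shares over 10 genes are imprecise. TYR, the enzyme that starts melanin synthesis, has no value here in either line, and the same holds for DCT, OCA2, SLC24A5, MYO7A and TRPM1. GPNMB, a melanosomal and lysosomal glycoprotein, showed the largest difference. Its values were 28.3, 30.6 and 43.6 in MCF10A against 9394, 7838 and 7000.3 in hTERT RPE-1, with a log2 difference of 7.86 (SE 0.17, adjusted p = 5.1e-10). All 3 hTERT RPE-1 libraries were more than 100-fold above any MCF10A library. GPR143, a receptor of the melanosome, stood at 18.4, 14.2 and 17.6 in MCF10A against 155, 105 and 149 in hTERT RPE-1, a mean 8.13-fold higher in hTERT RPE-1.

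RAB32 and HPS1, which serve the transport of cargo to melanosomes and related organelles, were 3.56-fold and 5.56-fold higher in hTERT RPE-1. SLC45A2, a melanosomal transporter, was listed there alone at 47.4, 58.3 and 65.9. In the other direction, RAB38, a close relative of RAB32, had 1677, 1821 and 1844 in MCF10A against 96.5, 56.3 and 133 in hTERT RPE-1, with a log2 difference of -4.29 (SE 0.25, adjusted p = 1.3e-06). MREG, the melanosome transport factor melanoregulin, was 14.4-fold higher in MCF10A, and MYRIP, a motor linker, was listed there alone at 6.15, 6.55 and 13. RAB32 and RAB38 thus stood on opposite sides, each with no overlap between the lines.

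TYRP1, an enzyme of melanin synthesis, and PMEL, the fibre protein of the melanosome, were set apart by a single library. TYRP1 was listed for hTERT RPE-1 alone, with values of 1.69, 5.93 and 547 in replicates 1, 2 and 3. PMEL was at 1.23, 9.83 and 4.64 in MCF10A against 13.5, 8.89 and 531 in hTERT RPE-1. Replicate 3 of hTERT RPE-1 was thus far above both other replicates in each gene. In the 6 hTERT RPE-1 libraries with a mimic, the deposited values ranged from 1.09 to 12.2 for TYRP1 and from 1.16 to 10.5 for PMEL. PMEL did not pass the filter, neither gene was tested, and without replicate 3 both were near the value of 3 reads or a few times above it. MLANA, another melanosome protein, was at 81.1, 53.5 and 59.4 in MCF10A against 23.7, 22.7 and 44.4 in hTERT RPE-1, so that all 3 hTERT RPE-1 libraries, replicate 3 included, lay below the breast line, and it was not called (log2 difference -1.11, SE 0.32, adjusted p = 0.92). The melanocyte markers SOX10 and EDNRB have no value here. Listed genes are above 0 in all 9 libraries of a table, so a gene found in replicate 3 alone may also have no value. Within hTERT RPE-1, MLANA was highest in replicate 3, and so was NGFR of the melanocyte and neural crest list, at 0.847, 3.95 and 20. Other pigment genes went both ways. RAB27A, RAB38 and SLC45A2 were also highest in replicate 3, whereas GPNMB, RAB32, HPS1, MLPH and BLOC1S1 were lowest there. GPR143 and MREG lay between the other replicates. Whether replicate 3 held other cells was not tested. The plot of pigment genes by library shows the 2 genes beside the other members.

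**Figure D3:**
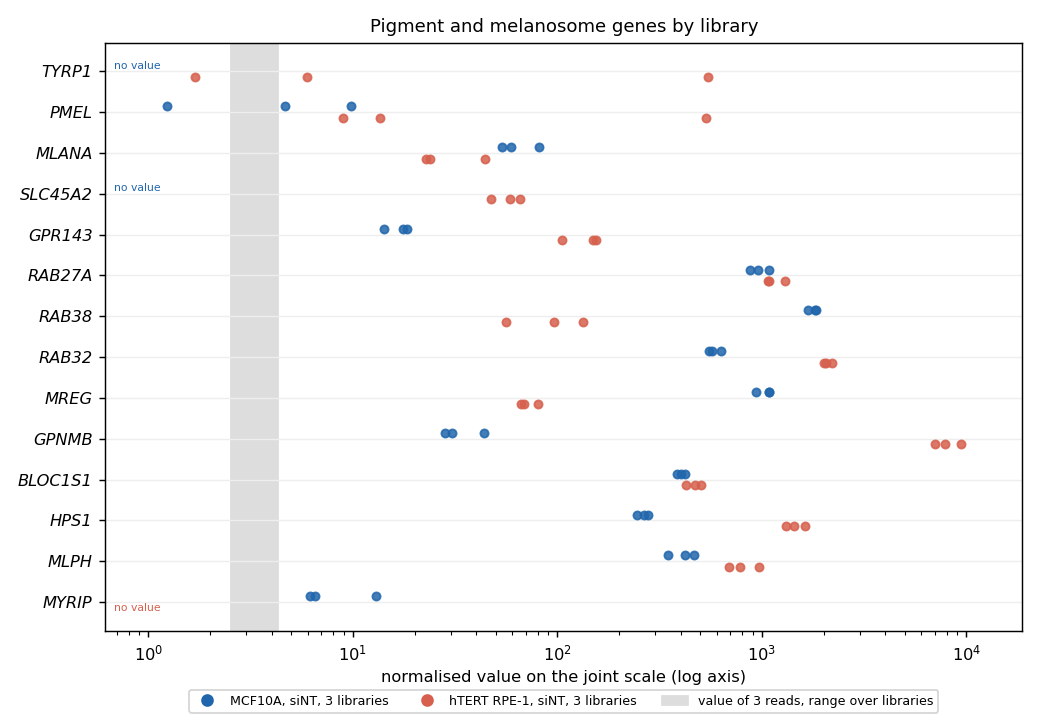
Values of the 14 pigment and melanosome genes with a value (points, 3 libraries per line, log axis, joint scale), with the band marking the value of 3 reads. TYRP1 at 547 and PMEL at 531 in hTERT RPE-1 replicate 3 stand apart from the other replicates of that line, whereas GPNMB is higher in all 3.

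The receptors with which the RPE takes up photoreceptor tips, and the proteins that bridge them to the cargo, had no member called higher in MCF10A. Of the 12 genes, 11 were tested, with a median log2 difference of 2.44. In hTERT RPE-1 7 (63.6%) were called higher and in MCF10A 0, against 15.0% and 12.7% of all genes tested. MERTK, the uptake receptor best known in the RPE, was listed for hTERT RPE-1 alone at 70.3, 60.3 and 67.3. Its relative AXL had values of 1122, 1221 and 975 in MCF10A against 22514, 18832 and 24993 in hTERT RPE-1 and a log2 difference of 4.32 (SE 0.12, adjusted p = 5.1e-09). GAS6, the ligand of AXL and MERTK, differed the most, at 961, 1169.7 and 1107 in MCF10A against 21769.9, 27303 and 19184 in hTERT RPE-1 (log2 difference 4.39, SE 0.13, adjusted p = 7.7e-09).

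Both chains of the integrin that binds the cargo were higher in hTERT RPE-1 in every library. ITGAV was 9.91-fold higher, with 4459, 3913 and 4453 in MCF10A against 39248, 51567 and 36282 in hTERT RPE-1. ITGB5 was 16.2-fold higher. PROS1, the other bridging ligand, GULP1, an engulfment adaptor, and the lysosomal protease CTSD were also called, at log2 differences of 2.44, 3.23 and 1.95. TYRO3, MFGE8, CD36 and LAMP1 were not called, and LAMP1 had an adjusted p of 0.062 at a log2 difference of 1.21.

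Transport, channel and matrix proteins of the RPE had calls in both directions. Of 26 genes, 18 were tested, with 4 (22.2%) called higher in hTERT RPE-1, 5 (27.8%) higher in MCF10A and 9 not called, at a median of -0.45. The shares over all genes tested were 15.0% and 12.7%, and shares over 18 genes are imprecise. Another 2 (SLC13A3 and IGFBP5) were listed for hTERT RPE-1 alone, 1 (AQP1) for MCF10A alone, and 5 have no value here. BEST1, the chloride channel of the RPE, was higher in the breast line. Its values were 607, 877 and 947 in MCF10A against 150.2, 177 and 158 in hTERT RPE-1, with no overlap and a log2 difference of -2.30 (SE 0.17, adjusted p = 9.3e-05). The largest difference in that direction was SLC6A15, an amino acid transporter, at 4210.4, 4573 and 4779 against 265, 160.1 and 265 (19.7-fold). TIMP3, an inhibitor of matrix proteases that collects below the RPE, was 17.6-fold higher in MCF10A.

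ATP1B1, a beta subunit of the sodium pump, was called higher in hTERT RPE-1 at 1.84 (SE 0.18, adjusted p = 0.0023). Also toward hTERT RPE-1, SULF1, a sulfatase of the cell surface, had the largest log2 difference at 4.79 (SE 0.52, adjusted p = 1.0e-04), although its values there spread from 979 to 3771. EFEMP1, a matrix glycoprotein of the RPE, was 6.66-fold higher and SLC4A2, an anion exchanger, was called as well. SERPINF1, the secreted factor PEDF, was low in both lines, at 43, 30.6 and 50.1 in MCF10A against 14.4, 7.91 and 53 in hTERT RPE-1, and the lines overlapped. SLC16A1, a lactate transporter, was called higher in MCF10A at -1.28 (SE 0.077, adjusted p = 0.0097), and the call was lost without hTERT RPE-1 replicate 1 (adjusted p = 0.059).

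Breast basal genes stood strongly on the side of MCF10A. Of 13 basal keratins and partners, 9 were listed for MCF10A alone (KRT5, KRT14, KRT17, KRT6A, KRT6B, KRT6C, KRT16, KRT13 and KRT4), 2 were called higher there, 1 was called higher in hTERT RPE-1 and KRT75 has no value here. Among all genes listed for either line, 8.72% were listed for MCF10A alone. KRT5 and KRT14, the keratin pair of basal cells, were abundant in MCF10A, KRT5 at 76171, 91458 and 89778 and KRT14 at 33384, 43019 and 33746. KRT15, another basal keratin, was at 17842, 9834 and 11918 in MCF10A against 26.2, 19.8 and 28.6 in hTERT RPE-1, with a log2 difference of -8.96 (SE 0.21, adjusted p = 7.1e-10). KRT81, a hair-type keratin, was 13.8-fold higher in MCF10A. KRT80 was the exception of the list, with 249.6, 261 and 166 in MCF10A against 8264, 8198 and 6549.8 in hTERT RPE-1 (log2 difference 5.10, SE 0.17, adjusted p = 1.3e-08). Several of these keratins are near-identical copies (KRT6A, KRT6B and KRT6C, KRT14, KRT16 and KRT17, KRT81 and its neighbours), so the division of reads among them is uncertain.

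The simple keratins were not a mark of the breast line alone. KRT8, the keratin of simple epithelia, was 4.78-fold higher in hTERT RPE-1, with values of 3712, 2903 and 2539 in MCF10A against 14879, 15211 and 13688 in hTERT RPE-1 and a log2 difference of 2.27 (SE 0.13, adjusted p = 1.0e-05). Its partner KRT18 was at 4756, 5266 and 4470.4 in MCF10A against 12982, 12828 and 11286 in hTERT RPE-1 (log2 difference 1.36, SE 0.095, adjusted p = 0.0083), and this call was lost with the sum as the scale (1.07, adjusted p = 0.65) and with quantile normalization (1.21, adjusted p = 0.10). KRT7, a simple keratin of glands, went the other way at 22724, 17464 and 16129 against 565, 509 and 363 (39.2-fold). KRT23 was listed for MCF10A alone, and KRT19 and KRT20 have no value here.

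Per kb of transcript, the keratins can be ordered within a line. In MCF10A, KRT5 led at 34036, 40866 and 40115 per kb, and KRT14 (20406, 26295 and 20627) and KRT6A (19783, 22046 and 19676) followed with overlapping replicates. In hTERT RPE-1, KRT18 (9188, 9079 and 7988) and KRT8 (8340.1, 8526 and 7672) led and overlapped, and KRT80 (2134, 2117 and 1691) and KRT81 (1063, 1682 and 759) came below them. The 3 simple keratins with a value in both lines (KRT7, KRT8 and KRT18) summed to 14513–19431 per kb in MCF10A against 15883–17918 in hTERT RPE-1, so the lines overlapped. The 3 such members of the basal list (KRT15, KRT80 and KRT81) summed to 18260–31029 against 2467–3811 per kb, with no overlap. In MCF10A the hair-type keratin KRT81 led this sum, at a mean of 16082 per kb against 7709 for KRT15. In hTERT RPE-1 KRT80 and KRT81 carried it, at means of 1980 and 1168 per kb against 14.5 for KRT15. The sum is thus not a measure of basal keratins.

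**Figure D4:**
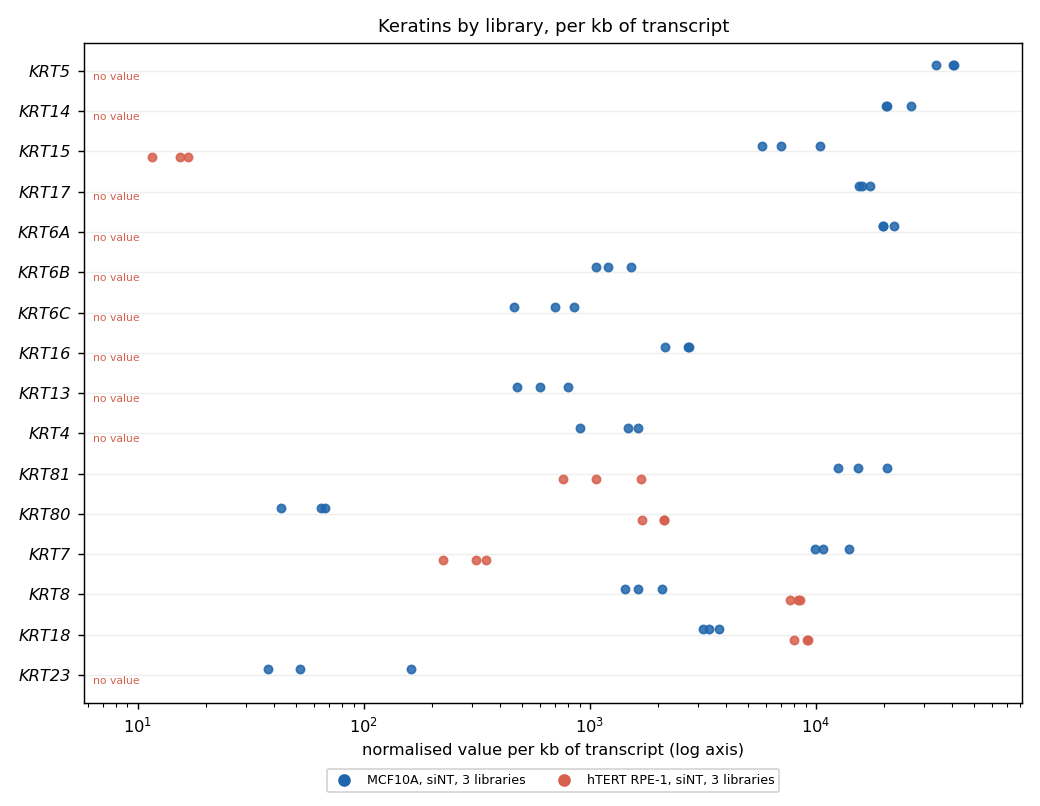
Values of 16 keratins per kb of transcript in each library (points, log axis). KRT5, KRT14, KRT17 and KRT6A are listed for MCF10A alone at the top of the scale, and KRT8, KRT18 and KRT80 are the keratins that are higher in hTERT RPE-1.

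Basal regulators and adhesion genes followed the basal keratins. Of the 32 genes, 26 were tested, with a median of -4.17, and 5 were not called. Another 20 (76.9%) were called higher in MCF10A and 1 (3.85%) in hTERT RPE-1, against 12.7% and 15.0% of all genes tested. TP63, the master factor of stratified epithelium, lies at chr3:189631389-189897276. It had values of 3386, 3008 and 3611 in MCF10A against 32.2, 24.7 and 17.2 in hTERT RPE-1, a 135-fold higher mean in MCF10A (log2 difference -7.06, SE 0.21, adjusted p = 3.5e-09).

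LAMA3 and LAMB3, chains of laminin-332, the anchor of basal cells, were called higher in MCF10A. LAMA3 was at 20973, 14435 and 16302 in MCF10A against 16.1, 13.8 and 11.5 in hTERT RPE-1 (log2 difference -10.18, SE 0.17, adjusted p = 7.5e-11), and LAMB3 had a log2 difference of -4.70. The hemidesmosome integrin followed, with ITGA6 12.9-fold higher and ITGB4 at a log2 difference of -3.45. ITGA3, the alpha chain of the other laminin-332 receptor, was the 1 gene called higher in hTERT RPE-1, at 5946, 5546 and 5348 in MCF10A against 34353, 35894 and 31411 in hTERT RPE-1 (log2 difference 2.59, SE 0.09, adjusted p = 1.3e-07). The linkers DST and PLEC, and DSG2, JUP and EGFR, were not called. TRIM29, SFN, DSG3, PKP1 and FGFBP1 were listed for MCF10A alone, with DSG3, a desmosomal cadherin of stratified layers, at 27417, 17483 and 22948. NGFR was listed for hTERT RPE-1 alone at 0.847, 3.95 and 20. Genes of the cornified envelope and squamous secretion were also present. Of those 35, 31 (88.6%) were listed for MCF10A alone, as were 8.72% of all genes listed for either line. The others were 2 (TGM1 and ZNF750) called higher there and 2 with no value here.

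The contractile genes of myoepithelial cells, which share the basal layer of the gland, did not go with the basal keratins. Of the 13 genes, 10 were tested, with a median of 4.39, and 3 (CNN1, ACTG2 and LMOD1) were listed for hTERT RPE-1 alone. In hTERT RPE-1 8 (80%) were called higher and in MCF10A 0, against 15.0% and 12.7% of all genes tested. TAGLN, the actin-bundling protein transgelin, had values of 63.4, 99.9 and 72.8 in MCF10A against 67500.1, 84805 and 50435 in hTERT RPE-1 and the largest log2 difference, 9.72 (SE 0.20, adjusted p = 2.6e-10). MYLK, the kinase that activates myosin, followed at 79.9, 89.6 and 81.6 in MCF10A against 43169.5, 43327 and 50166 in hTERT RPE-1 (log2 difference 9.07, SE 0.093, adjusted p = 6.5e-12). ACTA2, smooth muscle actin, was 152-fold higher in hTERT RPE-1, with 46615, 58132 and 17533 in its libraries, of which replicate 3 was the lowest. OXTR, the oxytocin receptor through which milk is ejected, was 83.9-fold higher in the retinal line, at 50.4, 69.9 and 87.2 against 5452, 6377 and 5582.

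MYH11, smooth muscle myosin, was low in both lines and not called at 8.7, 9.84 and 14.9 against 47.8, 65.7 and 8.66, and without hTERT RPE-1 replicate 3 it was called (2.27, adjusted p = 0.023). MME, the surface peptidase CD10, was not called at -0.77 (SE 0.17, adjusted p = 1).

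Luminal breast genes were split. Of 32 genes, 13 were tested, with 5 (38.5%) called higher in MCF10A, 4 (30.8%) higher in hTERT RPE-1 and 4 not called. Among all genes tested the shares were 12.7% and 15.0%. A further 8 were listed for MCF10A alone, 1 for hTERT RPE-1 alone and 10 have no value here. All genes listed for either line had 8.72% and 8.12% listed for 1 line alone. The median was 0.19, and -0.10 with the sum as the scale. ESR1, the oestrogen receptor, was low in both lines at 49.2, 22.9 and 24.1 in MCF10A against 59.3, 91.9 and 58.7 in hTERT RPE-1, and its log2 difference of 1.16 (SE 0.34, adjusted p = 0.84) was not called. GATA3, the luminal master factor, was listed for MCF10A alone at 803, 739 and 610.3. MUC1, a surface mucin, was 18.2-fold higher in MCF10A. CLDN4, a claudin of tight junctions, had the largest log2 difference in that direction (-7.48) at 979.8, 355 and 341 against 3.39, 0.988 and 1.43. In this gene 2 hTERT RPE-1 libraries were at or under 3 reads, so its size depends on the pseudocount.

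In the other direction, KRT8, STC2 (4.54-fold), ERBB2 (3-fold) and KRT18 were called higher in hTERT RPE-1. ERBB2 and ERBB3, receptors that signal as a pair, thus stood on opposite sides, with ERBB3 at 904, 538 and 495 in MCF10A against 5.08, 9.88 and 14.3 in hTERT RPE-1. Of 9 milk genes, LALBA and CSN2 have no value here in either line, nor have CSN1S1, CSN3 and BTN1A1. XDH, an enzyme that also coats milk fat, was 39.5-fold higher in MCF10A, and PLIN2, a lipid droplet protein, was listed for hTERT RPE-1 alone at 688, 622 and 634. LTF was listed for MCF10A alone and MFGE8 was not called.

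The junction and splicing program of epithelia stood on the side of MCF10A in every member with a value. Of the 35 genes, 17 were tested, and all 17 were called higher in MCF10A, where 12.7% of all genes tested were. Their median was -4.01. A further 16 were listed for MCF10A alone, where 8.72% of all genes listed for either line were, and GRHL2 and CLDN3 have no value here. CDH1 (E-cadherin), the adhesion molecule of epithelia, was listed for MCF10A alone at 12103, 6497 and 8491, and EPCAM, a second surface marker of epithelia, at 2775, 2083 and 2170.5. ESRP1, a splicing regulator, was also alone at 4539, 2649.6 and 3319, and ESRP2 was at 1161, 1283 and 1091 against 6.8, 3.97 and 8.69. The largest called difference of the list was MAL2, a protein of apical transport, at 38013, 24122 and 29932 against 151, 191 and 149 (log2 difference -7.53, SE 0.16, adjusted p = 4.3e-10), and the smallest was PATJ, a polarity protein, at -1.66 (SE 0.14, adjusted p = 0.0021).

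**Figure D5:**
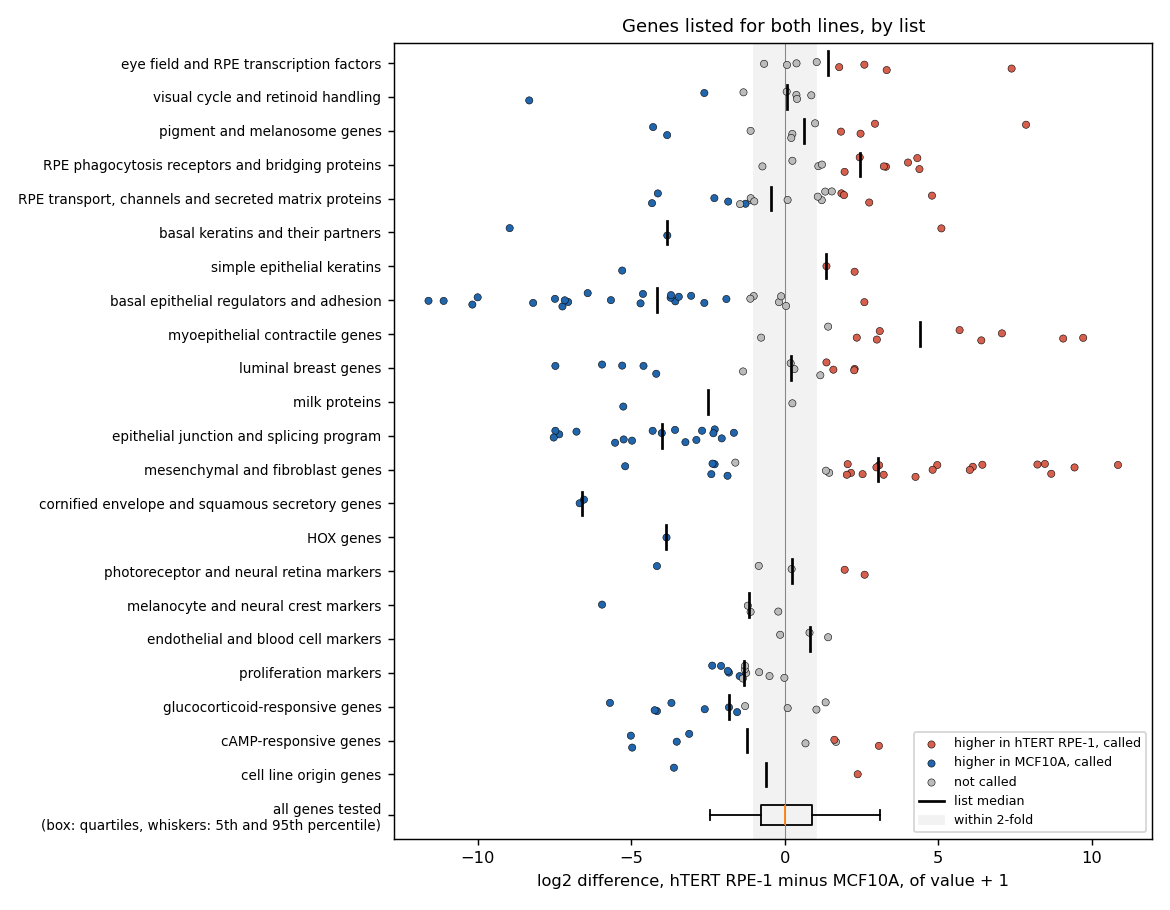
Log2 difference (x axis, hTERT RPE-1 minus MCF10A) of each tested list member (points), coloured by call, with the list median as a bar and all 13467 genes as a box below. Junction genes lie between -7.53 and -1.66 and contractile genes between -0.77 and 9.72.

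Mesenchymal genes were mostly, but not all, on the side of hTERT RPE-1. Of 38 genes, 26 were tested, at a median of 3.03, and 3 were not called. In hTERT RPE-1 18 (69.2%) were called higher and in MCF10A 5 (19.2%), against 15.0% and 12.7% of all genes tested. A further 7 were listed for hTERT RPE-1 alone, 3 for MCF10A alone, and MEOX2 and FOXF1 have no value here. CDH2 (N-cadherin) was at 151, 325 and 351 in MCF10A against 21492, 24368 and 21648 in hTERT RPE-1, or 81.6-fold higher (log2 difference 6.44, SE 0.26, adjusted p = 3.7e-08). VIM, the intermediate filament vimentin, was at 12362, 16562 and 15667 in MCF10A against 148242, 143988 and 121692 in hTERT RPE-1, or 9.28-fold higher (log2 difference 3.22, SE 0.14, adjusted p = 2.8e-07). PDGFRB, a receptor of mesenchymal cells, showed the largest difference of the list, at 4.92, 7.65 and 4.64 against 11581, 13463 and 11733 (log2 difference 10.85, SE 0.18). Its MCF10A values were all under 10, so it passed the filter through hTERT RPE-1 alone. Its call is a description, and its size depends on the pseudocount.

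The transcription factors of the mesenchymal list were divided. ZEB1, ZEB2, SNAI1 and TCF4 were called higher in hTERT RPE-1, with log2 differences of 3.07, 2.53, 4.97 and 2.05. SNAI2, TWIST1, TWIST2 and FOXC1 were called higher in MCF10A, at -2.39, -1.87, -2.29 and -2.36. SNAI2 averaged 2090.1 ± 149 in MCF10A and 399.6 ± 66.9 in hTERT RPE-1 (SD, n = 3 each). S100A4, a calcium-binding protein often used as a fibroblast marker, was 39-fold higher in MCF10A at 755, 1235 and 922 against 26.2, 22.7 and 25.8.

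Collagen chains that assemble together differed in level in hTERT RPE-1, some of them widely. Per kb of transcript, COL1A1 was at 5664, 11108 and 3737 and its partner COL1A2 at 2.5, 1.56 and 1.13. COL5A2 was at 2506, 3351 and 2694 per kb and COL5A1 at 0.903, 4.1 and 2.2. COL6A1 and COL6A3 were closer, COL6A1 at 255, 298 and 191 per kb and COL6A3 at 62.9, 85.5 and 55.3. The other chain of that type, COL6A2, has no value for hTERT RPE-1 and was listed for MCF10A alone at 16, 8.74 and 12.1 on the joint scale. These pairs were picked out after their values were seen.

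HOX genes, which set position along the body axis and are silent in the tissues of the anterior head, were found in MCF10A. Of the 39 genes, 21 were listed for MCF10A alone, 0 for hTERT RPE-1 alone and 17 have no value here. Among all genes listed for either line, 8.72% were listed for MCF10A alone and 8.12% for hTERT RPE-1 alone. HOXB4 was the 1 shared gene, at 44.3, 29.5 and 43.6 in MCF10A against 0.847, 0.988 and 4.29 in hTERT RPE-1, where all 3 libraries lay at or under 3 reads. It was called higher in MCF10A, with no fold given. In MCF10A the values came from clusters A (9 of 11 genes), B (5 of 10) and C (8 of 9), and none of the 9 genes of cluster D has a value here. Per kb of transcript HOXA5 led at 409, 410.1 and 369, and HOXA9 came next at 271, 292 and 301 with no overlap. In cluster C, HOXC6 at 132, 147 and 157 per kb and HOXC8 at 134, 148 and 128 overlapped. HOXB13 was at 2.46, 1.09 and 0.928 on the joint scale, all at or under 3 reads.

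Markers of neighbouring cell types were checked in both lines. Few were tested in each list, and of all genes tested 15.0% were called higher in hTERT RPE-1 and 12.7% in MCF10A. Of 18 markers of photoreceptors and neural retina, RCVRN, GNAT1, SAG, ARR3, OPN1SW, VSX1 and POU4F2 have no value here, and NRL, PDE6A and GNAT2 were low and overlapping in both lines. Over the 6 markers with a value in both lines, the sum was 40569–44517 in MCF10A against 9154–10520 in hTERT RPE-1, and it was carried by GLUL, glutamine synthetase, at 42932, 40085 and 39103 against 2402, 1961 and 2465. PRKCA, a kinase used to mark bipolar cells, and RBPMS were called higher in hTERT RPE-1, whereas SLC1A3, a glutamate transporter of glia, was listed for MCF10A alone at 1687, 1695 and 1619. PDE6B and RLBP1 were listed for hTERT RPE-1 alone at means below 10, and NR2E3 was listed for MCF10A alone at 1.23, 9.83 and 4.64. Of 15 endothelial and blood markers, 3 were tested and none was called, 3 were listed for MCF10A alone and 2 for hTERT RPE-1 alone, and CDH5, TIE1, ERG, CD3E, HBB and HBA1 have no value here. The 3 with a value in both lines (KDR, TEK and CD68) summed to 454–650.3 in MCF10A against 577–799 in hTERT RPE-1, and these overlapped. Of 13 melanocyte and neural crest markers, 4 were tested and 1, ERBB3, was called higher in MCF10A, 1 was listed for MCF10A alone, 2 for hTERT RPE-1 alone and 6 have no value here. The 4 tested summed to 3593–4484 in MCF10A against 1423–1593 in hTERT RPE-1. Of these, MLANA averaged 64.7 and 30.3 and ERBB3 646 and 9.76 in MCF10A and hTERT RPE-1. Most of both sums thus came from TFAP2A and MSX1, which were not called.

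Genes that answer to additions in the MCF10A medium were read beside the lineage genes, and their part in the differences was not tested. Of 13 genes known to respond to glucocorticoids such as hydrocortisone, 11 were tested, at a median of -1.82. In MCF10A 7 (63.6%) were called higher and in hTERT RPE-1 0, against 12.7% and 15.0% of all genes tested. ZBTB16 and TFCP2L1 were listed for MCF10A alone. FKBP5, a chaperone of the steroid receptors, was 51.7-fold higher in MCF10A, at 44215, 44681 and 48148 against 905, 768 and 976 (log2 difference -5.70, SE 0.10, adjusted p = 1.8e-10). The 11 tested summed to 113130–116980 in MCF10A against 20580–22778 in hTERT RPE-1, with GLUL among them as in the retinal list. SGK1, KLF9, TSC22D3 and ERRFI1 were not called.

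Cholera toxin raises cAMP in cells. Of 11 cAMP-responsive genes, 8 were tested, with 4 (50%) called higher in MCF10A, 2 (25%) higher in hTERT RPE-1 and 2 not called. The shares over all genes tested were 12.7% and 15.0%. PPARGC1A was listed for MCF10A alone, NR4A3 did not pass the filter and CGA has no value here. PDE4D, a cAMP phosphodiesterase, was 33-fold higher in MCF10A at 1934, 1965 and 2555 against 58.4, 71.2 and 65.9, and RGS2 and PDE4B followed at 32.3-fold and 11.7-fold. The nuclear receptors of the list differed in direction, with NR4A1 8.44-fold higher in hTERT RPE-1 and NR4A2 9.03-fold higher in MCF10A. Of 12 proliferation markers, 5 (CCNB1, CDK1, MCM3, CCNE2 and AURKA) were called higher in MCF10A and 7 were not called, at a median of -1.34. The 5 were 41.7% of the markers, against 12.7% of all genes tested. The mitotic cyclin CCNB1 was at 4539, 5884 and 4910.5 against 1184, 801 and 1008 (log2 difference -2.37, SE 0.15, adjusted p = 1.6e-05). MCM3 lost its call without hTERT RPE-1 replicate 2 or 3.

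The genes tied to how the lines were made were read last. TERT, the catalytic subunit of telomerase with which hTERT RPE-1 was immortalised, had values of 4.92, 6.55 and 8.35 in MCF10A against 43.2, 39.5 and 31.5 in hTERT RPE-1. It was called higher there with a log2 difference of 2.37 (SE 0.36). Its MCF10A values were all under 10, so it passed the filter through hTERT RPE-1 alone, and the call is a description. The call was lost with a pseudocount of 10 (1.53, adjusted p = 0.061). CDKN2A (chr9:21967752-21995301) and CDKN2B (chr9:22002903-22009305), neighbouring cell cycle inhibitors on chromosome 9, were listed for hTERT RPE-1 alone, CDKN2A at 3374, 3578 and 2725 and CDKN2B at 5584, 7888 and 4824. MTAP (chr9:21802636-21937651), the next gene, was listed for hTERT RPE-1 alone at 1309.9, 1232 and 1263, and the antisense RNA CDKN2B-AS1 at 16.1, 19.4 and 18.3. CDKN2B-AS1 overlaps CDKN2A and CDKN2B on the other strand and may share reads with them, since the strand of the libraries is not given. MYC, a growth-promoting factor, was 12.2-fold higher in MCF10A at 12792, 15569.6 and 16131 against 1406, 1068 and 1168 (log2 difference -3.61, SE 0.12, adjusted p = 3.2e-08).

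Over all genes, members of the lists included, those with the largest differences and a mean value of at least 100 were taken. The 10 toward hTERT RPE-1 were ITGA11, CLSTN2, ANKRD1, HMCN1, PDGFRB, SDC2, PRSS23, ST6GAL2, NID1 and UCHL1, at log2 differences of 10.2 to 13.8, and the means were 4177–135957 in hTERT RPE-1 and 2.22–59.7 in MCF10A. ITGA11, a collagen receptor, led with 6.15, 8.74 and 9.28 in MCF10A against 120982, 184805 and 102085 in hTERT RPE-1. In 6 of the 10, at least 1 MCF10A library lay at or under 3 reads, so the sizes depend on the pseudocount. Toward MCF10A, COL17A1, SERPINA3, LAMA3, CXCL1, FAT2, CLCA2, FERMT1, CRYBG1 and ABCA12 were among the 10, at log2 differences from -11.12 to -9.62, and 4 of the 10 had an hTERT RPE-1 library at or under 3 reads. COL17A1, a hemidesmosome collagen, was at 14780.4, 13079.8 and 13901 against 5.08, 3.95 and 7.16.

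Of the genes listed for 1 line alone, the 5 with the highest means in MCF10A were KRT5, KRT6A, S100A9, KRT14 and SERPINB5, so 3 of the 5 were keratins. S100A9, a calcium-binding protein of squamous and myeloid cells, was at 24657, 60568 and 25561, with replicate 8 the highest. The 5 in hTERT RPE-1 were BCAT1, GREM1, DKK3, ADAMTS12 and GJA1. GREM1, a secreted inhibitor of BMP signals, was at 27907, 29071 and 37360.2, and DKK3, a secreted protein of the Dickkopf family, at 21769.9, 25443 and 22143. GJA1, the gap junction protein connexin 43, was at 19416, 22404 and 23356. BCAT1, a branched-chain amino acid transaminase, had the highest mean at 34449 ± 2669 (SD, n = 3).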

How the data were processed

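RNAseq of polyadenylated RNA from 6 siNT libraries was used, 3 of MCF10A and 3 of hTERT RPE-1, from tables of 9 libraries per line. The authors aligned paired-end reads to hg38 with HISAT2 2.1.0 and used the E/M module of Partek Flow to quantify RefSeq transcripts. The signal the authors deposited, 1 value per gene symbol in each library, is an estimate of reads after scaling with size factors (median of ratios) set within each line. In the low range, 84.0–85.5% of values were whole multiples (within 0.05) of the value of 1 read, so whole reads were not recovered and no test for counts was run. The same step gave the depth of 23.8–40.3 M reads, and limits in reads cover counting error only. The deposited result tables, which hold p-values, FDR, ratios and least-squares means of the authors' own comparisons, were not used.

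The 6 columns were joined by symbol, rescaled together and fitted in limma 3.58.1 (R 4.3.3) as log2(value + 1), with a trend over the mean, a filter of at least 10 in at least 3 libraries, and treat against a 2-fold interval. A fold change is the ratio of means, and a log2 difference is on the log2(value + 1) scale, which understates changes of low genes. The fit was tested on simulated data. Replicates differed by more than sampling noise (chi-square per degree of freedom of 23.5–50.6 within lines) and each counted as 1. Lengths are those of canonical transcripts in GENCODE 44, found for all 352 list members with a value, and promoters are from RefSeq. Tables and plots were made in Python 3.11.15 (matplotlib 3.10.9, numpy 2.4.6, pandas 2.3.3).

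Named genes are, in each list, the defining members and the called members with the largest fold in each direction, then the 10 genes with the largest differences in each direction at a mean of at least 100, and the 5 highest genes listed for each line alone. Other members are given to describe their list, and the collagen pairs were chosen after their values were seen. Members and lists were chosen with earlier results of these data known. Alternatives were other scalings, pseudocounts, filters and intervals, and leaving out each library. Genes that tell sex, and a few other members of the lists, are counted but not reported here by name.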

Additional observations from a re-analysis of the deposited data

How the results depend on the processing

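With an interval of 4-fold, 1466 genes were called (882 higher in hTERT RPE-1 and 584 in MCF10A), and with 1.5-fold 5974 (3095 and 2879). The other scalings, pseudocounts and filters gave 3548 to 3994 calls. Leaving out 1 library gave 3268 to 3510 calls, with 1715 to 1999 higher in hTERT RPE-1 and 1399 to 1655 in MCF10A, and 9343 to 9820 against no difference. Among calls, the share higher in hTERT RPE-1 was 54.2%, and 40.5% with the sum as the scale, and it went from 50.4% to 38.6% against no difference. No paired analysis was possible because the replicate numbers of the lines (7 to 9 and 1 to 3) are not shared. Of 209 list or named genes tested, 149 were called, and over 14 alternatives 0 of these reversed and 4 lost the call (KRT18, SLC16A1, MCM3 and TERT), while 16 others gained one. The cause was not tested.

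Another 13 genes, none called, changed sign. With the sum as the scale the log2 differences became LHX2 -0.19, RDH10 -0.23, RAB27A -0.045, BLOC1S1 -0.079, MFGE8 -0.043, BSG -0.20, PLEC -0.25, BHLHE40 -0.099, NRL -0.040 and ERRFI1 -0.20. Quantile normalization gave BSG -0.076, PLEC -0.24 and ERRFI1 -0.018, a pseudocount of 10 gave LHX2 -0.050, and the scaling as deposited gave MCM5 0.049. Leaving out 1 library in turn, the log2 differences ranged from -0.69 to 0.27 for LHX2, -0.031 to 0.13 for RDH10, -0.064 to 0.21 for PLEC, -0.064 to 0.49 for NRL, -0.41 to 0.050 for MSX1, -0.33 to 0.098 for KDR and -0.20 to 0.14 for MCM5.

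Depth limits low genes: a gene below about 3 reads per library has no readable fold, and a gene with no value in a line cannot be placed there. The lines differ in medium as well as origin, and 3 samples per line measure only the spread within each.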
